A study of Mus musculus with 2 samples.

Results

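The S100 proteins are small calcium sensors of the EF-hand type, each encoded by a short gene. 8 of the 32285 genes in the count tables were followed here, found by their symbols, namely S100a8, S100a9, S100a4, S100a6, S100a10, S100a11, S100a1 and S100a13. These 8 were picked from the family with earlier results of these data known. A further 9 genes of the family served for comparison. The question was where in the sorted brain cells each member was found, and whether its level differed between the genotypes.

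Cells came from the brains of 23-week-old male mice, either littermate controls of genotype Disc1 WT/WT (called control below) or mice homozygous for the Disc1 locus impairment allele (Disc1 LI/LI), with 6 brains pooled per genotype. Dissociation took place in the presence of the transcription inhibitor actinomycin D, and CD45-low CD11b+ cells were sorted, a gate that marks microglia and can also hold other myeloid cells. The strain is not given in the sources used here. Each genotype gave 1 library of droplet 3′ RNA sequencing, in which a unique molecular identifier (UMI) marks each captured transcript, so that genotype and library cannot be told apart and no test between genotypes was possible. All intervals below are 95% intervals for counting error only, and levels are UMIs of a gene scaled to a common total over the same cells (CPM), a scale that does not depend on gene length in 3′ counting.

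The control library held 33601957 UMIs in 7038 barcodes and the Disc1 LI/LI library 47731571 UMIs in 7834 barcodes, of which 7032 and 7817 cells were kept. Disc1 had 642 UMIs in the control library and 22 in the Disc1 LI/LI library. 12 barcodes occurred in both. The labels call the cells of both libraries microglia, but marker genes did not bear this out for Disc1 LI/LI. Cells in which 6 microglia markers (P2ry12, Gpr34, Tmem119, Siglech, Fcrls, Olfml3) held at least 0.5% of UMIs are called microglia-like, and cells in which 5 granule and secretory genes of neutrophils (Retnlg, Lcn2, Ngp, Camp, Ltf) held at least 1% are called neutrophil-like. No S100 gene entered these rules. Microglia-like cells were 87.9% of control cells (6183) and 25.2% of Disc1 LI/LI cells (1971). Neutrophil-like cells were 1.41% (99) and 43.5% (3397). Other cells were 10.5% (741) and 30.8% (2409), and the 9 and 40 cells that met both rules were kept apart. Few cells lay near the neutrophil limit, with 4 and 72 between 0.8% and 1.2%, while 302 and 210 lay between 0.4% and 0.6% of microglia markers.

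S100a8 and S100a9 form the heterodimer calprotectin, which fills the cytosol of neutrophils, is also made by monocytes, and acts outside the cell as an alarmin through Tlr4. S100a4 and S100a6 are linked to motility and bind non-muscle myosin and the calcyclin-binding protein Cacybp, respectively. S100a10 is the partner of annexin A2 and S100a11 of annexin A1. S100a1 is best known from muscle, and S100a13 takes part in the release of Fgf1.

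All 8 members lie on mouse chromosome 3 (mm10, GENCODE M21). S100a8 (ENSMUSG00000056054) lies at chr3:90668978-90670035 on the plus strand and S100a9 (ENSMUSG00000056071) at chr3:90692632-90695721 on the minus strand, so that they are transcribed toward each other. S100a4 lies at chr3:90603771-90606045, S100a6 at chr3:90612882-90624181, S100a11 at chr3:93520488-93526287 and S100a10 at chr3:93555080-93564643, all on the plus strand. S100a1 at chr3:90511034-90514392 on the minus strand and S100a13 at chr3:90514435-90524581 on the plus strand start next to each other and share no exon bases. Of the 584 exon bases of S100a4, 302 are also annotated to another gene, so its counts may be less certain. The strand of the overlap was not compared, and its effect on the counts was not tested.

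The stretches around the annotated starts are shown for the pair that dominates neutrophil-like cells, for S100a4, which had its highest level in classical monocyte-like cells, and for S100a11, which was present in most classes, to show how genes with such unlike levels differ around their starts. Each runs 5′ to 3′ on the gene's own strand from 60 bases before the RefSeq start (GRCm38.p6) to 30 bases from it. Capitals mark the motifs TATAAA and GGGCGG.
S100a8: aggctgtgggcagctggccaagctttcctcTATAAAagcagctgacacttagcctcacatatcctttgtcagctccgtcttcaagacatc
S100a9: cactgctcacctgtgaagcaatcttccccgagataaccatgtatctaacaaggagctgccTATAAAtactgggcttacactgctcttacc
S100a4: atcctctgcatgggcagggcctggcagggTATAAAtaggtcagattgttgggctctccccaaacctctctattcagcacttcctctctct
S100a11: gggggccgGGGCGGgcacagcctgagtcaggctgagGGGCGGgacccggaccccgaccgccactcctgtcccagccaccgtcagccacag

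The stretches lie at chr3:90669011-90669100, chr3:90695692-90695781, chr3:90603710-90603799 and chr3:93520436-93520525. TATAAA was searched on both strands of 300 bases and was present in 13.6% of 32851 RefSeq promoter windows. Its first base lay 30 bases before the start of S100a8, 31 before that of S100a4 and at the annotated start of S100a9. Between 40 bases before and 10 after the start, on the gene's own strand, it was present in 2.51% of windows. The windows of S100a1, S100a6, S100a11 and S100a13 had no TATAAA. The motif GGGCGG, in 35.7% of windows, occurred 3 times before the start of S100a11, with 2 of these in the stretch shown, and once, outside it, before that of S100a9. Such a match is a description of the letters and not of a site in use.

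S100a8 and S100a9 were the members with the highest levels in neutrophil-like cells of both genotypes. S100a8 had 125803 CPM in the control library (interval 124858 to 126754) and 150234 in Disc1 LI/LI (150064 to 150404). S100a9 had 151024 CPM (149988 to 152065) and 177410 (177226 to 177595). Together they made up 27.7% of all UMIs of control neutrophil-like cells and 32.8% of those of Disc1 LI/LI. Every neutrophil-like cell of both libraries had UMIs of both genes. The median cell gave 28.5% of its UMIs to the pair in the control library, with 5th and 95th percentiles of 10.6% and 39.2%, against a median of 33.8% in Disc1 LI/LI, with percentiles of 16.8% and 42.7%. The ranges of single cells overlapped over nearly their whole width.

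**Figure D1:**
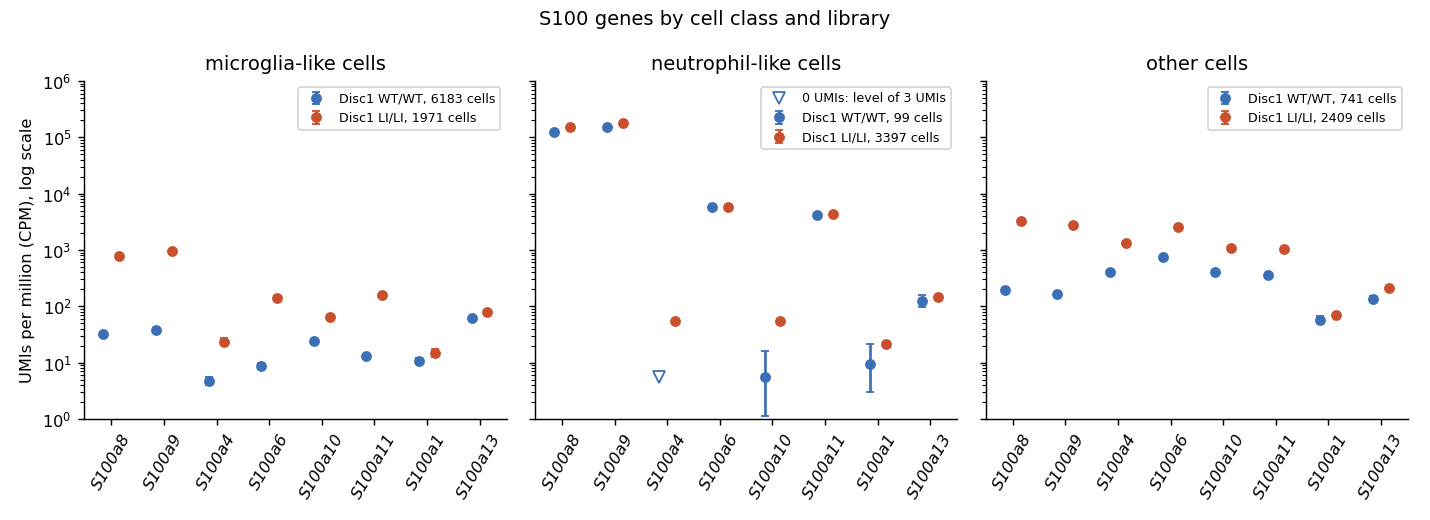
CPM on a log scale of the 8 S100 genes in microglia-like, neutrophil-like and other cells of each library, with 95% Poisson intervals for counting error, and an open triangle at the level of 3 UMIs where a gene had 0. S100a8 lies at 125803 and 150234 CPM in neutrophil-like cells, and 6 members sit more than 2-fold higher in Disc1 LI/LI than in control microglia-like cells.

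Over whole libraries the pair followed the neutrophil-like cells. S100a8 and S100a9 were 0.498% of all UMIs in the control library and 14.1% in Disc1 LI/LI. Neutrophil-like cells held 89.2% of the pair's UMIs in the control library, although they were 99 cells, and 97.3% in Disc1 LI/LI. Over all cells, each of the 8 members was at least 2-fold higher in Disc1 LI/LI, with 13.8% of 15044 genes doing the same. The log2 ratio over all cells ran from 1.17 for S100a13 to 4.83 for S100a8, and the share of each class differed between the libraries in the same comparison, so the classes were compared one by one.

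Within neutrophil-like cells the abundant members differed by less than 2-fold between the genotypes. The log2 ratio of Disc1 LI/LI over control was 0.26 for S100a8 (0.25 to 0.27) and 0.23 for S100a9 (0.22 to 0.24). S100a6 had 5704 CPM in the control library and 5714 in Disc1 LI/LI, and thus a log2 ratio of 0.0026 (-0.05 to 0.05). S100a11 had 4154 and 4352 CPM, a log2 ratio of 0.07 (0.0066 to 0.13). The size depended on the setting. Under 10 other settings the log2 ratio ran from 0.17 to 0.73 for S100a8 and from 0.12 to 0.70 for S100a9. It ran from -0.10 to 0.47 for S100a6 and from -0.10 to 0.54 for S100a11. S100a13 had 126 and 145 CPM, with an interval of the log2 ratio from -0.15 to 0.57. 3 of 8 members were at least 2-fold higher in Disc1 LI/LI, beside 4.76% of 11087 genes, and none was 2-fold lower, beside 20.5%. These 3 were the members with the fewest UMIs in the 99 control cells. S100a4 had 0 UMIs there and 1111 in Disc1 LI/LI, which is at least 10.0-fold higher against a floor of 3 UMIs over the group. S100a10 had 3 UMIs against 1112, a log2 ratio of 3.32 (1.77 to 5.60), and S100a1 had 5 against 426, a log2 ratio of 1.20 (-0.03 to 2.83). After each cell was thinned to 1000 UMIs, 1 member was at least 2-fold higher and the log2 ratio of S100a1 was -1.16 (-3.14 to 1.95), so its direction turned. In Disc1 LI/LI, 59.8% of the S100a4 UMIs and 58.9% of the S100a10 UMIs of neutrophil-like cells lay in the 34 cells (1%) with the most UMIs of that gene, while S100a4 had no UMI in 94.1% of cells. In the same cells S100a4 and S100a10 correlated across cells (Pearson r = 0.50, 3397 cells of 1 library), whereas S100a4 and S100a6 did not (r = -0.03).

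The 18 neutrophil genes outside the marker rule were listed with results of these data known. In the same comparison their median log2 ratio was -0.0023. Of them 0 were at least 2-fold higher, beside 4.76% of genes, and 0 at least 2-fold lower, beside 20.5%. The median over the 8 members was 0.24 and that over all genes with at least 10 UMIs was -0.40.

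**Figure D2:**
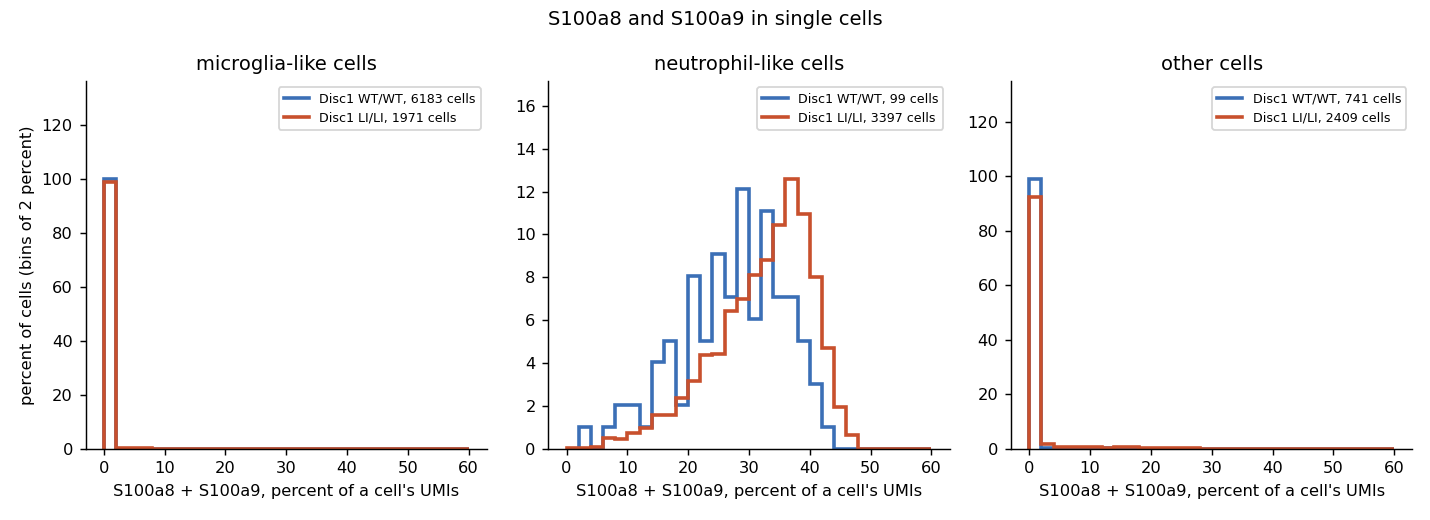
Distribution of the share of a cell's UMIs given to S100a8 and S100a9 together (percent, x axis) as percent of cells (y axis), for each class and library. The neutrophil-like cells spread around their medians of 28.5% and 33.8%, and microglia-like cells of both libraries pile up in the lowest bin.

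Members differed in how they varied among neutrophil-like cells. Ngp, Camp and Ltf encode secondary granule proteins made by immature neutrophils, and cells were ordered in 5 bins by the summed share of these genes, with limits that divide the Disc1 LI/LI cells evenly. These genes are also in the neutrophil rule, so cells with little of them entered the class through Retnlg or Lcn2. Across Disc1 LI/LI neutrophil-like cells Retnlg correlated with S100a6 at r = 0.75, with S100a11 at 0.78 and with S100a8 at -0.12. The part of the class rule in the order of the bins was not tested. In Disc1 LI/LI the S100a6 level was 12468 CPM in the first bin and 1166 in the last. S100a11 went the same way, from 7548 to 2285 CPM. S100a8 went the other way, from 107522 to 168638 CPM, and so did S100a9, from 138416 to 190115. S100a13 had 72.0 CPM in the first bin and 164 in the last. The 99 control cells gave 9166 and 1880 CPM for S100a6, 6027 and 2671 for S100a11 and 81215 and 144331 for S100a8 in the first and last bins, although 3 of their bins held fewer than 20 cells. The bins also differed in depth, with a median of 2433 UMIs per cell in the first and 9222.5 in the last bin of Disc1 LI/LI, and the part of depth was not tested. Cxcr2, which goes with mature neutrophils and is not in the marker rule, had 892 CPM in the first Disc1 LI/LI bin and 62.2 in the last.

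**Figure D3:**
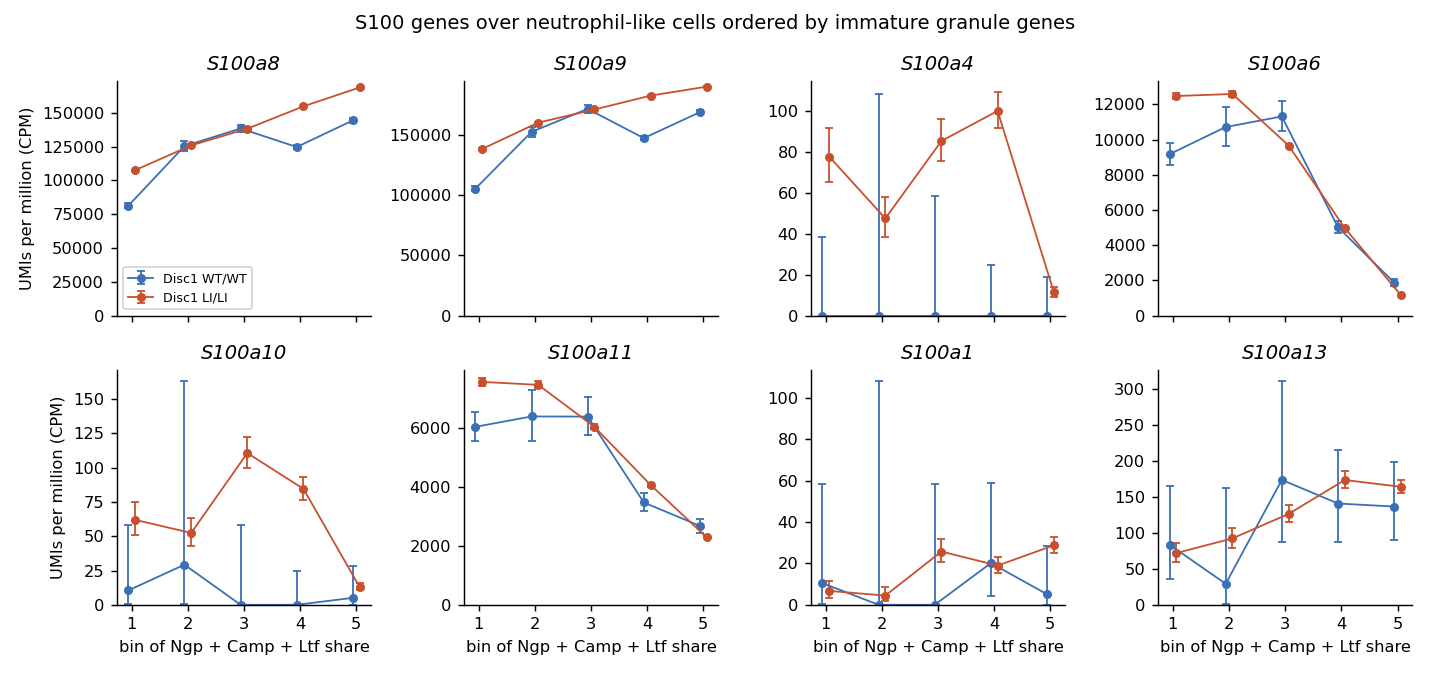
CPM of each S100 gene (y axis, from 0, with 95% Poisson intervals) in neutrophil-like cells split into 5 bins by the share of Ngp, Camp and Ltf (x axis, 1 lowest), for each library. These genes are also in the neutrophil rule. S100a6 and S100a11 are lowest in the fifth bin of both libraries, S100a8 and S100a9 are lowest in the first.

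Across Disc1 LI/LI neutrophil-like cells, S100a8 and S100a9 correlated with each other (r = 0.90) and S100a6 with S100a11 (r = 0.68), whereas S100a6 and S100a8 did not go together (r = -0.22). S100a6 correlated with Ngp at r = -0.59. S100a8 correlated with Ngp at r = 0.59. In the 99 control cells the same pairs gave r of 0.94, 0.63, -0.18, -0.52 and 0.63. Ngp is a gene of the neutrophil rule. These values describe cells of single libraries on log2(CPM + 100) and share the depth of each cell.

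Neutrophil-like cells exceeded microglia-like cells of the same library at least 2-fold for 5 of 8 members in the control library, beside 10.0% of 12934 genes, and for 5 of 8 in Disc1 LI/LI, beside 13.3% of 12591. In the control library these were S100a8, S100a9, S100a6, S100a11 and S100a13. In Disc1 LI/LI S100a4 took the place of S100a13, whose log2 ratio was 0.90 (0.77 to 1.02) there and 1.02 (0.65 to 1.37) in the control library. Under 9 other settings the Disc1 LI/LI log2 ratio of S100a4 ran from -0.35 to 2.67. Of its neutrophil-like UMIs there, 59.8% lay in 34 cells. The log2 ratio of S100a8 was 11.92 in the control library and 7.60 in Disc1 LI/LI, that of S100a6 was 9.38 and 5.33, and that of S100a11 was 8.32 and 4.79. When cells meeting both rules were counted in both classes, these came to 8.77 and 5.40 for S100a8, 8.31 and 4.21 for S100a6 and 7.54 and 3.97 for S100a11. S100a10 was the one member lower in neutrophil-like cells of both libraries, by a log2 ratio of -2.12 (-4.40 to -0.57) from 3 UMIs in the control library and -0.21 (-0.36 to -0.06) in Disc1 LI/LI. It was thus the 1 of 8 members at least 2-fold lower in the control library, beside 43.4% of genes, and 0 of 8 were so in Disc1 LI/LI, beside 61.0%. The Disc1 LI/LI sign of S100a10 turned with the scaling. It was 0.36 with totals that leave out S100a8 and S100a9, and 1.20 with TMM scaling. With TMM scaling all 8 members passed 2-fold in Disc1 LI/LI. Over 9 other settings the number ran from 4 to 8 there and from 4 to 6 in the control library.

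In control microglia-like cells every member was low. S100a13 was highest at 62.3 CPM (59.5 to 65.2), followed by S100a9 at 38.0 (35.8 to 40.3), S100a8 at 32.6 (30.5 to 34.7) and S100a10 at 24.2 (22.5 to 26.1). Of the S100a8 and S100a9 UMIs, 66.1% and 69.8% lay in the 62 cells (1%) with the most UMIs of that gene. For each of the pair 3 cells had over 10 UMIs, so their place above S100a10 rests on few cells. S100a11 had 12.99 (11.7 to 14.4) and S100a1 10.8 (9.66 to 12.1), which overlap. S100a6 had 8.57 (7.54 to 9.69) and S100a4 4.73 (3.97 to 5.58). In Disc1 LI/LI microglia-like cells S100a9 led with 948 CPM (927 to 969) and S100a8 had 776 (758 to 796). S100a11 with 158 (149 to 166) and S100a6 with 142 (134 to 150) overlapped. S100a13 had 77.8 (71.9 to 84.0), S100a10 64.4 (59.1 to 70.1), S100a4 23.4 (20.2 to 26.9) and S100a1 14.8 (12.3 to 17.7).

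All 8 members were higher in Disc1 LI/LI than in control microglia-like cells, and 6 of 8 were at least 2-fold higher, beside 4.25% of 13160 genes. The median log2 ratio was 2.95 over the members and -0.18 over all genes with at least 10 UMIs. S100a9 had a log2 ratio of 4.64 (4.55 to 4.73), S100a8 of 4.58 (4.48 to 4.67), S100a6 of 4.05 (3.85 to 4.25), S100a11 of 3.60 (3.44 to 3.77), S100a4 of 2.31 (1.98 to 2.63) and S100a10 of 1.41 (1.25 to 1.58). S100a1 at 0.45 (0.14 to 0.76) and S100a13 at 0.32 (0.19 to 0.45) stayed under 2-fold. When cells meeting both rules were counted in both classes, the log2 ratio was 3.72 for S100a8 and 3.79 for S100a9. The 4 members with the highest ratios were the 4 with the highest levels in neutrophil-like cells.

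Most listed genes of neutrophils were also higher in Disc1 LI/LI microglia-like cells. The 5 neutrophil markers summed to 18.1 CPM in the control library and 640 in Disc1 LI/LI microglia-like cells, 0 and 4 of them had a UMI in at least 10% of cells, and none was at 0 UMIs. The class rules keep these 5 markers below 1% of UMIs in each microglia-like cell, which limits their level here. The 18 neutrophil genes outside the rule, listed with results of these data known, had a median log2 ratio of 4.48. Of them 17 were at least 2-fold higher in Disc1 LI/LI, beside 4.25% of 13160 genes. Csf3r, a cytokine receptor gene also found in microglia, was the exception at -0.17. The level of S100a8 in microglia-like cells was 0.0259% of its neutrophil-like level in the control library and 0.517% in Disc1 LI/LI. For S100a9 it was 0.0252% and 0.534%, for S100a6 0.150% and 2.48%, and for S100a11 0.313% and 3.62%. The neutrophil genes outside the rule other than Csf3r lay between 0.0219% and 0.283% in the control library and between 0.859% and 4.07% in Disc1 LI/LI, with the rule genes at 0.00989% to 0.0429% and 0.407% to 0.936%. S100a6 fell within the range of the listed genes in both libraries, S100a11 was just above it in the control library, and S100a8 and S100a9 were within it in the control library and below it in Disc1 LI/LI. S100a13 stood far from them, at 49.4% and 53.7%, and in Disc1 LI/LI so did S100a1 at 69.5%, S100a4 at 42.0% and S100a10 at 116%. Markers of classical monocytes moved as well, with 32.6 CPM over the 6 genes in the control library and 226 in Disc1 LI/LI. So did those of progenitors (137 and 262), B and plasma cells (36.3 and 111), T and NK cells (14.1 and 39.5) and erythroid cells (2.99 and 19.1). Lists of nonclassical monocytes, dendritic cells and basophils were also higher. Those of border-associated macrophages (113 and 41.5), microglia, astrocytes, oligodendrocytes, neurons and endothelial cells were lower.

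**Figure D4:**
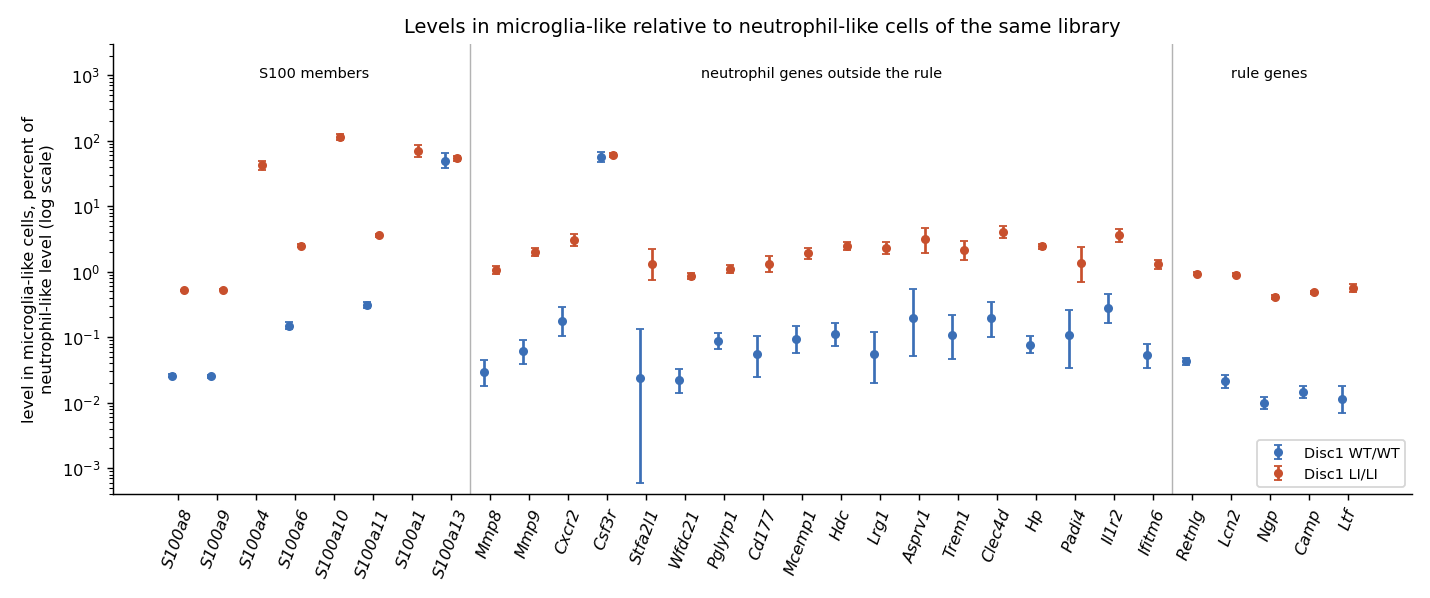
Level in microglia-like cells as a percent of the neutrophil-like level of the same library (log scale, 95% intervals for counting error) for S100 members with at least 10 UMIs in neutrophil-like cells, 18 neutrophil genes outside the marker rule and the 5 rule genes. S100a8, S100a9, S100a6 and S100a11 lie under 4% and are higher in Disc1 LI/LI, where S100a8 and S100a9 lie below the 17 listed neutrophil genes other than Csf3r, and S100a13 lies at 49.4% and 53.7%.

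Single cells showed a low and even signal with a few high cells. S100a8 had a UMI in 6.26% of control microglia-like cells (5.67 to 6.89) and 71.3% of those of Disc1 LI/LI (69.3 to 73.3), where the median cell had 1 UMI. Yet 59.2% of the S100a8 UMIs of Disc1 LI/LI microglia-like cells lay in 20 cells (1%), and 15 cells had over 100. Without the 29 Disc1 LI/LI and 3 control cells that had over 10 UMIs of the pair, the log2 ratio was 4.51 for S100a8 and 4.68 for S100a9. Without any cell that had a UMI of a neutrophil marker, it was 4.57 and 4.71. S100a10 then came to 0.77 (0.20 to 1.29), under 2-fold, and S100a1 to -0.015 (-1.24 to 0.98). That choice left 225 of 1971 Disc1 LI/LI cells, with 736995 UMIs, and 5792 of 6183 control cells, with 27176115. A cell with fewer UMIs more readily has none of a marker, and the part of depth was not tested. Both ways of leaving out cells were added after the data were seen.

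The share of cells with a UMI was next compared with classes that are not known to make calprotectin. With each cell thinned to 1000 UMIs, S100a8 had a UMI in 28.4% of the microglia-like cells of Disc1 LI/LI, 31.5% of T and NK-like cells and 30.6% of B and plasma-like cells. S100a9 had one in 31.8%, 26.0% and 36.0%. Before thinning, at a median of 3799, 3502.5 and 2806.5 UMIs per cell, S100a8 had a UMI in 71.3%, 59.5% and 62.5%. In the control library the thinned S100a8 share was 1.55% of microglia-like cells, and 1.15% of only 87 border-associated macrophage-like cells. The thinned S100a8 share of Disc1 LI/LI microglia-like cells was no higher than in either lymphoid class, and that of S100a9 lay between them. The lymphoid shares rest on 73 T and NK-like and 111 B and plasma-like cells. Without thinning, the pair summed to 1724 CPM in microglia-like, 665 in T and NK-like and 2472 in B and plasma-like cells of Disc1 LI/LI. The source of these UMIs was not tested. For S100a13 the thinned share was 6.27% in the control library and 6.91% in Disc1 LI/LI microglia-like cells, against 12.2% and 11.3% in neutrophil-like cells.

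The ratio of S100a8 to S100a9 gave a further comparison between classes. It was 0.833 in control neutrophil-like cells (0.825 to 0.842) and 0.847 in those of Disc1 LI/LI (0.846 to 0.848). Microglia-like cells had 0.857 (0.785 to 0.935) and 0.819 (0.792 to 0.847), close to the neutrophil-like value of their library. These 2 ratios draw mostly on few cells. In the control library 62 cells held 66.1% of the S100a8 and 69.8% of the S100a9 UMIs. In Disc1 LI/LI 20 cells held 59.2% and 60.8%. The intervals treat UMIs of the same cell as separate. B and plasma-like cells of Disc1 LI/LI had 0.857 (0.767 to 0.957) and T and NK-like cells 0.728 (0.533 to 0.990). S100a8 exceeded S100a9 in 2 named classes of at least 50 cells, both of Disc1 LI/LI, with 1.37 (1.32 to 1.42) in classical monocyte-like and 1.40 (1.38 to 1.42) in progenitor and promyelocyte-like cells.

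The summed levels of S100a8, S100a6 and S100a4 were higher over microglia-like cells with a smaller share of microglia markers. When these cells were split in 5 by their share of microglia markers, S100a8 had 95.1 CPM in the lowest and 13.6 in the highest bin of the control library, and 1754 and 327 in Disc1 LI/LI. S100a6 had 37.0 and 2.52 CPM in the control library and 304 and 82.9 in Disc1 LI/LI. S100a4 had 18.7 and 1.68 CPM, and 56.1 and 10.2. S100a13 differed less, with 69.6 and 53.5 CPM, and 91.0 and 70.8. In each bin S100a8 was higher in Disc1 LI/LI. These sums draw on few cells. In the control library 66.1%, 89.3% and 98.6% of the S100a8, S100a6 and S100a4 UMIs lay in 1% of microglia-like cells. In Disc1 LI/LI the shares were 59.2%, 43.8% and 63.4%. A cell mixed with another cell would also have a smaller share of microglia markers, and the part of such cells was not tested.

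In other cells of Disc1 LI/LI S100a8 had 3251 CPM, S100a9 2799, S100a6 2592, S100a4 1321, S100a10 1105 and S100a11 1056. In those of the control library S100a6 led with 745 CPM, followed by S100a10 with 411 and S100a4 with 402. Classes of these cells were set by the marker list with the largest share of UMIs, if at least 0.5%, and named only where markers were detected and led. Detection of these markers is no separate check of a name, because the same lists chose the cells. In the 1189 classical monocyte-like cells of Disc1 LI/LI (6 of 6 markers detected) S100a6 had 3942 CPM, S100a4 2094, S100a10 1465 and S100a11 1134. S100a8 had 849 and S100a9 620. In the 42 control cells chosen by the same list the levels were 3296 for S100a6, 1860 for S100a4, 1441 for S100a10 and 1006 for S100a11, but S100a8 had 330 and S100a9 17.1 from 7 UMIs. S100a4 had a UMI in 99.4% of the Disc1 LI/LI cells and in all 42 of the control library.

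In the 117 progenitor and promyelocyte-like cells of Disc1 LI/LI, led by Mpo, Ctsg, Elane and Prtn3, which encode primary granule proteins, S100a8 had 10072 CPM and S100a9 7203, between the levels of monocyte-like and neutrophil-like cells. S100a6 had 378 CPM, far below the 5714 of neutrophil-like cells. S100a1 reached its highest level among all classes of at least 50 cells here, with 152 CPM (139 to 165) and a UMI in 96.6% of cells, at a median depth of 31153 UMIs. After thinning, 16.7% of these cells had an S100a1 UMI, against 6.58% of classical monocyte-like and 0.883% of neutrophil-like cells of the library.

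Lymphoid cells of Disc1 LI/LI carried S100a10. The 74 T and NK-like cells had 1859 CPM of S100a10 (1700 to 2030), its highest level among the classes, 1452 of S100a6 and 336 of S100a4. The 112 B and plasma-like cells had 440 CPM of S100a10 and 22.9 of S100a4. The 104 border-associated macrophage-like cells of the control library had little S100a6 (5.77 CPM from 2 UMIs) and 0 UMIs of S100a4, while S100a1 had 72.1 CPM (46.7 to 106) and S100a13 118.

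**Figure D5:**
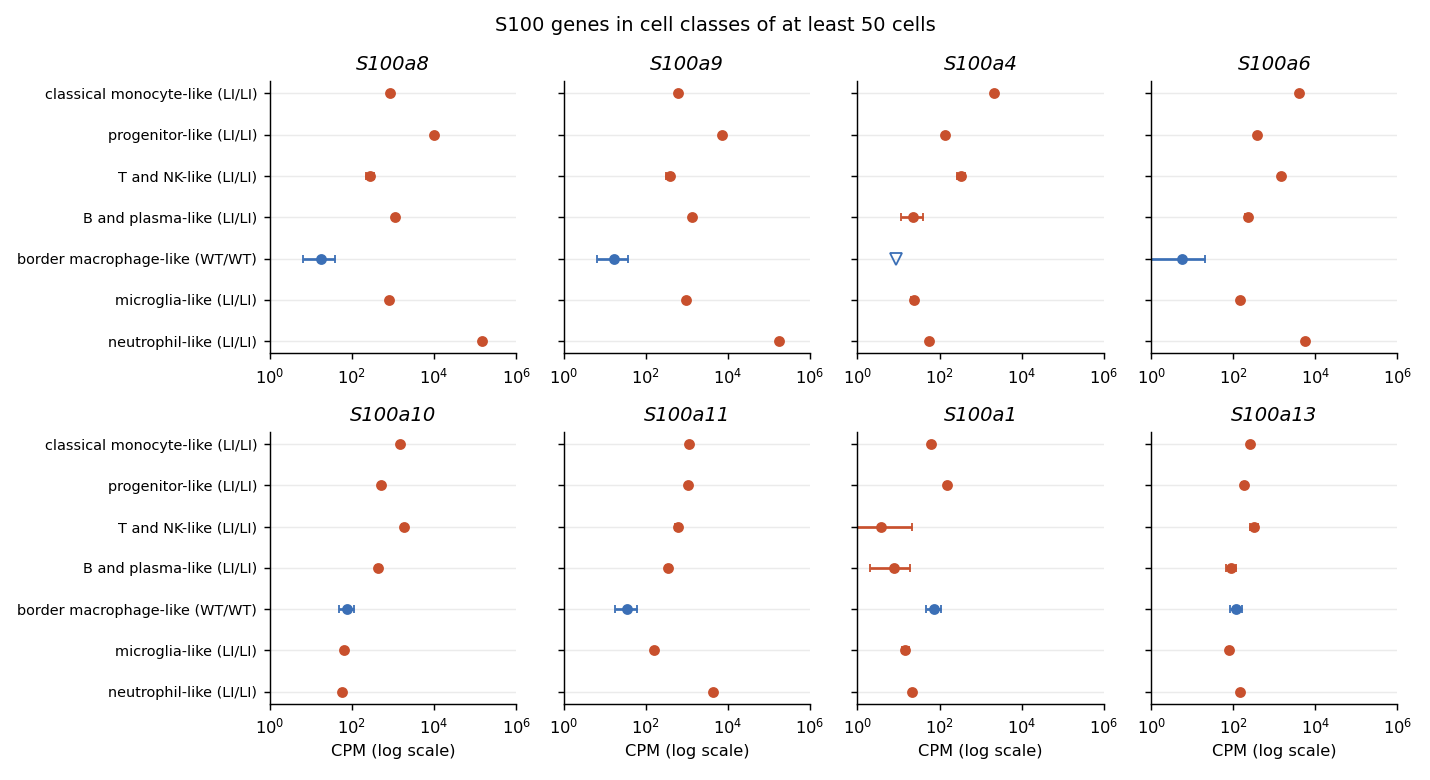
CPM (log scale, 95% Poisson intervals) of each S100 gene in named classes of at least 50 cells, red for Disc1 LI/LI and blue for the control library, with an open triangle at the level of 3 UMIs where a gene had 0. S100a4 is highest in classical monocyte-like cells at 2094 CPM, S100a8 and S100a9 in neutrophil-like cells, and S100a1 in progenitor-like cells at 152 CPM.

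Over all other cells together, 6 of 8 members were at least 2-fold higher in Disc1 LI/LI, beside 6.77% of 13292 genes, with a median log2 ratio of 1.64. S100a8 had a log2 ratio of 4.06 (3.95 to 4.17), S100a6 of 1.8 (1.74 to 1.86), S100a4 of 1.72 (1.64 to 1.80) and S100a11 of 1.56 (1.48 to 1.65). S100a1 had 0.27 (0.05 to 0.49) and changed sign to -0.76 (-1.06 to -0.46) without the classical monocyte-like and progenitor-like cells, a comparison added after the data were seen. Leaving them out kept 1103 of the 2409 Disc1 LI/LI cells and 697 of the 741 control cells. Then S100a4 had a log2 ratio of 1.80 and S100a6 of 2.01. The cells left still differed in makeup. Those led by no list had 2095 CPM of the classical monocyte markers in Disc1 LI/LI and 498 in the control library. The B and plasma list chose 112 and 12 cells, and the border-associated macrophage list 16 and 104. The part of this makeup was not tested. All 8 members were at least 2-fold higher in other than in microglia-like cells, in the control library (17.9% of 13642 genes higher, 15.8% lower) and in Disc1 LI/LI (20.1% of 13326 higher, 28.6% lower).

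Genes of receptors for S100a8 and S100a9 were set beside the ligands in microglia-like cells. None of the 7 was at least 2-fold higher in Disc1 LI/LI, where 4.25% of all genes were, and 2 were at least 2-fold lower, beside 5.72% of genes. These 2 were Ager and Cd36, both under 3 CPM in each library. Tlr4, the best known receptor, had 80.1 CPM in the control library and 52.0 in Disc1 LI/LI, and thus a log2 ratio of -0.62 (-0.77 to -0.47). Its partner Ly96 had 75.7 and 84.8 CPM, and Cd14 322 and 348. Bsg, which encodes the S100a9 receptor basigin, had 511 and 601 CPM. In neutrophil-like cells 2 of 7 receptor genes were at least 2-fold lower in Disc1 LI/LI, near the 20.5% of all genes, Tlr4 among them with 31.5 and 15.0 CPM. The control level of Tlr4 there rests on 99 cells, and TMM scaling shifted log2 ratios of this comparison up by 0.47. In other cells 3 of the 6 tested were at least 2-fold lower, beside 26.9% of genes, with Cd36 at 91.5 and 7.09 CPM and Cd33 at 112 and 35.8.

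Of 11 genes for proteins that bind S100 members, 3 were at least 2-fold higher in Disc1 LI/LI microglia-like cells, beside 4.25% of all genes. Anxa1, which encodes the partner of S100a11, had 1.50 CPM in the control library and 19.4 in Disc1 LI/LI. Anxa2, which encodes the partner of S100a10, had 3.30 and 27.9, and Ahnak 3.77 and 9.51. Anxa1 and Anxa2 were abundant in neutrophil-like cells, with 3446 and 2203 CPM for Anxa1 and 773 in both libraries for Anxa2. Cacybp, which encodes the partner of S100a6, had 178 and 181 CPM in microglia-like cells, and Myh9, which encodes a non-muscle myosin bound by S100a4, had 141 and 99.6. In neutrophil-like cells 2 of the 10 tested were at least 2-fold higher, beside 4.76% of all genes, and 2 lower, beside 20.5%. In other cells 2 of 10 were higher, Anxa1 and Anxa2, beside 6.77%, and 2 lower, beside 26.9%. The counts of lower genes were near those shares.

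For each member, genes outside the family were ranked by the Pearson correlation of log2(CPM + 10) over the 13 pairs of class and library with at least 50 cells, among 5354 genes. These points share libraries and depth, so the values are a description. S100a9 was most like Hdc, which encodes the enzyme of histamine synthesis (r = 0.97), and G0s2 (0.97). S100a8 was also most like Hdc (0.96), followed by Wfdc21 (0.96). S100a4 was most like Ccr2, which encodes the chemokine receptor of classical monocytes (0.96), and the integrin gene Itgb7 (0.94). Ccr2 is in the marker list that chose the classical monocyte-like cells, so its likeness is no separate check of a monocyte pattern. S100a6 and S100a11 shared Cd44, which encodes a hyaluronan receptor, as their nearest gene (0.96 and 0.95), followed by Anxa2 (0.95) for S100a6 and Anxa1 (0.95) for S100a11. S100a10 was nearest to Uqcrh, a gene of the respiratory chain (0.98), S100a13 to the myosin light chain gene Myl12a (0.97) and S100a1 to Tmem205 (0.94).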

How the data were processed

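Cells sorted from pooled brains were measured in 1 library per genotype. Gene by barcode UMI counts were made by the authors in Cell Ranger 6.1.2, using mm10 (STAR per the labels' processing notes, which also name Seurat 3.0.1) and deposited without normalization; which droplet chip each library used is not given in the sources used here. Cells needed 200 or more genes and no more than 10% of UMIs from mitochondrial genes, and doublets were not removed, no doublet caller being run. Counts were summed over the cells of a class and divided by their total UMIs. Levels have exact Poisson, shares exact binomial and ratios Clopper-Pearson intervals, at 95%, and these cover counting error alone. No p-value is given for 1 library against 1, and a gene counts as 2-fold higher or lower by its ratio alone, among genes with at least 10 UMIs. A side at 0 was set to 3 UMIs and gives a bound. The script for the ratios was tested on simulated data. The genes named were the 8 members, listed genes with at least 50 CPM in a class, and the 5 genes most like each member. Ager, Cd36 and the genes that lead a class were named after their values were seen. Annexin and Ahnak levels under 50 CPM in microglia-like cells are given because these genes pass that level in another class. The members, lists and class rules were chosen with earlier results of these data known. The limit of 0.5% for the classes of other cells was set with the data in view. Cells whose leading list was that of dendritic cells were led by MHC class II genes and were left unnamed. Alternatives were TMM scaling (edgeR 4.0.16, R 4.3.3), means over cells, thinning to 1000 UMIs, other cell filters, marker limits and totals, and those said to be added. Promoters of 7 of the 8 members came from RefSeq, with no entry for S100a10. Scripts ran in Python 3.11.15 with pandas 2.3.3, scipy 1.17.1, matplotlib 3.10.9 and numpy 2.4.6.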

Additional observations from a re-analysis of the deposited data

Results flagged for a closer look

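Cells that met both marker rules were in no comparison, and their levels of the pair were high. The 9 such cells of the control library had 67939 CPM of S100a8 and 75952 of S100a9, and the 40 of Disc1 LI/LI had 67598 of S100a8 and 79043 of S100a9. Each is above the level of microglia-like cells and below that of neutrophil-like cells of the same library. Their median depth was 9239 and 7860.5 UMIs, against 4271 and 3799 in microglia-like cells and 4523 and 4240 in neutrophil-like cells. Whether they are doublets was not tested.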

How the results depend on the processing

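No paired analysis was possible because each genotype has a single library. Under 10 other settings, 6 members stayed at least 2-fold higher in Disc1 LI/LI microglia-like cells, and the median log2 ratio of the members ran from 2.88 to 3.20. Under 4 alternatives added after the data were seen, the number was 5 or 6. The number in neutrophil-like cells was 1 with cells thinned to 1000 UMIs. The number above microglia-like cells in Disc1 LI/LI ran from 4 to 8 under 9 other settings, with 8 for TMM scaling. It ran from 4 to 6 in the control library. Signs turned for members with few UMIs or ratios near 0, and for S100a4 in a comparison where it was at least 2-fold higher. S100a1 of Disc1 LI/LI over control came to -0.086 in other cells with means over cells, to -0.76 without classical monocyte and progenitor cells, and to -0.015 in microglia-like cells without a neutrophil marker UMI. S100a1 of neutrophil-like over microglia-like cells in Disc1 LI/LI came to -0.62 with means over cells, -0.54 thinned and -0.56 without the 5% of cells with the most UMIs, and S100a10 came to 1.20 with TMM scaling, 0.35 with marker limits of 1% and 2% and 0.36 with totals without S100a8 and S100a9. With limits of 0.25% and 0.5%, S100a4 of that comparison came to -0.35, although it had 1111 and 194 UMIs and passed 2-fold in the main setting. The same limits took S100a11 of Disc1 LI/LI over control in neutrophil-like cells to -0.10. S100a1 of that last comparison came to -1.16 with cells thinned. The causes were not tested. TMM scaling shifted log2 ratios between genotypes by 0.13 in microglia-like, 0.47 in neutrophil-like and 0.48 in other cells, and neutrophil-like over microglia-like ratios by 0.97 in the control library and 1.41 in Disc1 LI/LI. With genes of at least 50 CPM only, fewer were tested. Those 2-fold higher and lower in Disc1 LI/LI microglia-like cells were 24 and 29 of 3554 (0.675% and 0.816%). In neutrophil-like cells they were 59 and 252 of 2286 (2.58% and 11.0%), and in other cells 231 and 498 of 3258 (7.09% and 15.3%). For neutrophil-like over microglia-like cells they were 575 and 2087 of 3948 (14.6% and 52.9%) in the control library. In Disc1 LI/LI they were 499 and 1951 of 3466 (14.4% and 56.3%). The 99 control neutrophil-like cells, with 539239 UMIs, limit the values of S100a1, S100a4 and S100a10 there.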

Other observations

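The 9 other genes of the S100 family were at or near the limit of detection in these cells. In neutrophil-like cells of Disc1 LI/LI, with 19976043 UMIs, S100a3 had 30 UMIs, S100a2 24 and S100a7a 18. S100a16 had 34 UMIs in other cells of Disc1 LI/LI and 23 in those of the control library, which is 1.78 and 6.50 CPM. S100b, an astrocyte gene, had 4 UMIs in the control library and 2 in Disc1 LI/LI microglia-like cells. S100z had 0 UMIs in microglia-like, neutrophil-like and other cells of both libraries.

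In the 42 control cells chosen by the classical monocyte list, S100a8 had 135 UMIs and S100a9 7, a ratio of 19.3 (9.11 to 48.9), against 8223 and 6005 UMIs in the 1189 cells of Disc1 LI/LI. S100a8 had a UMI in 26.2% and S100a9 in 14.3% of the 42 cells.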
